A study of Mus musculus with 4 samples.

Results

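Innate immune receptors reach their kinases through a small set of shared proteins, and 10 mouse genes of this kind were followed here in splenic dendritic cells: the adaptors Sting1, Mavs, Myd88, Ticam1, Ticam2 and Tirap, the receptor chaperones Unc93b1 and Cnpy3, and the receptor-proximal kinases Irak4 and Tbk1. The genes were chosen by name, with earlier results of these data known. Their probe sets were those whose only gene symbol in the array annotation was 1 of the 10. The annotation named 12 probe sets for 8 of the genes, out of 18193 genes named on the array. Ticam2 and Irak4 had no probe set named for them and were not analysed here. Sting1, Mavs, Tirap and Tbk1 were each read by 2 probe sets, and Myd88, Ticam1, Unc93b1 and Cnpy3 by 1.

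Toll-like receptors (TLRs) signal through adaptors that carry a TIR domain: MyD88, which recruits IRAK kinases for most TLRs, TIRAP, which brings MyD88 to TLR2 and TLR4, and TRIF (Ticam1), which serves TLR3 and, with TRAM (Ticam2), TLR4. MAVS sits on mitochondria and relays the cytosolic RNA sensors RIG-I and MDA5, and STING sits in the endoplasmic reticulum and relays cyclic dinucleotides made by the DNA sensor cGAS. The kinase TBK1 phosphorylates interferon regulatory factors downstream of TRIF, MAVS and STING. UNC93B1 escorts the nucleic acid-sensing TLRs to endosomes, and CNPY3 helps fold most TLRs together with the heat shock protein gp96 (Hsp90b1). In mouse spleen, CD8α+ dendritic cells are known for TLR3-driven responses and for presenting antigens of dying cells, and CD8α− dendritic cells are known for responses to TLR7 ligands and to cytosolic RNA.

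Both groups came from the spleen of C57BL/6 mice, and the labels give no treatment. CD8α+ dendritic cells (2 arrays) and CD8α− dendritic cells (2 arrays) were measured on Affymetrix Mouse Genome 430 2.0 arrays, which read each transcript with 1 or more probe sets. Age, sex, the number of animals behind a sample and the way the cells were sorted are not given in the sources used here, so the p-values reflect spread between arrays that may be technical in origin. In such bulk samples, fewer cells of a type and less RNA per cell cannot be told apart. Signals below are quantile normalized MAS5 signals, and differences are log2 signal in CD8α+ minus CD8α− cells, with the standard error (SE) of a limma fit over 22519 probe sets, n = 2 arrays per group. An array's background is its highest reading among 27 bacterial control probe sets.

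The groups carried their defining antigen: on each of the 5 Cd8a probe sets both CD8α+ arrays read above both CD8α− arrays, by at least 71.3-fold on the brightest. Of 10 measured markers of the CD8α+ (cDC1) lineage, 9 were higher in CD8α+ cells at an unadjusted p under 0.05, against 7.18% of all genes. Cd8a itself is among the 9. Batf3, the marker not called, read lower in CD8α+ cells with no overlap (-0.28). Of 5 markers of the CD8α− (cDC2) lineage, 4 were lower at that level, against 8.84% of all genes. CD8α− replicate 2 stood apart. Its median signal as deposited was 17.4 (22.9 to 35.1 on the other arrays), and its ratio of 3′ to 5′ Gapdh control signal was 10.7 (1.53 to 2.02 on the others). The Actb ratio went the other way on that array, at 0.759 (1.62 to 1.69 on the others). The CD8α+ arrays correlated at r = 0.956 across probe sets and the CD8α− arrays at r = 0.836, a description over features that share the same libraries.

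After quantile normalization 6 of the 8 genes differed by under 0.5 log2 units between the populations. The share of all genes under that size was not computed. Sting1 differed most, with the lower signal in CD8α+ cells. As deposited, where the median probe set was 0.62 higher in CD8α+ cells, only Myd88 (0.49) was under 0.5. Tbk1 (1.44) then differed slightly more than Sting1 (-1.37). By limma with Benjamini-Hochberg adjustment over all 22519 tested probe sets, 0 member genes and 0 probe sets of the whole array passed an adjusted p of 0.05 (0% called), the lowest adjusted p on the array being 0.113. At an unadjusted p under 0.05, 1 of the 8 genes (12.5%) was called, Sting1, against 16% of the 10531 genes tested. Over all genes 8.84% were called lower and 7.18% higher. The absolute difference exceeded 1 log2 unit in 1 of the 8 genes, against 25.2% of all genes, and its median was 0.33 in the 8 genes against 0.53 in all. The signed medians were -0.05 and -0.02. In 5 of the 8 genes (62.5%) the 2 arrays of one group both lay above those of the other, against 53.9% of all genes. Mavs, Ticam1 and Tbk1 were on the higher side in CD8α+ cells (37.5%, against 25.6% of all genes). Sting1 and Myd88 were on the lower side (25%, against 28.3% of all genes). With 8 genes these shares are coarse, and their gap to the whole array was not tested. Counted by probe set, 5 of the 11 tested separated the groups, 3 higher (26.1% of all tested probe sets) and 2 lower (26.2%). Over all tested probe sets 52.3% did so in either direction. The groups overlapped on the untested Mavs probe set. Of the 11 tested, 0 were called higher and 1 lower at an unadjusted p under 0.05, against 7.83% of all probe sets in each direction (15.7% in both), and 1 differed by over 2-fold, against 26%. With 2 arrays against 2, an exact permutation test cannot give a two-sided p below 0.333 and was not used.

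**Figure D1:**
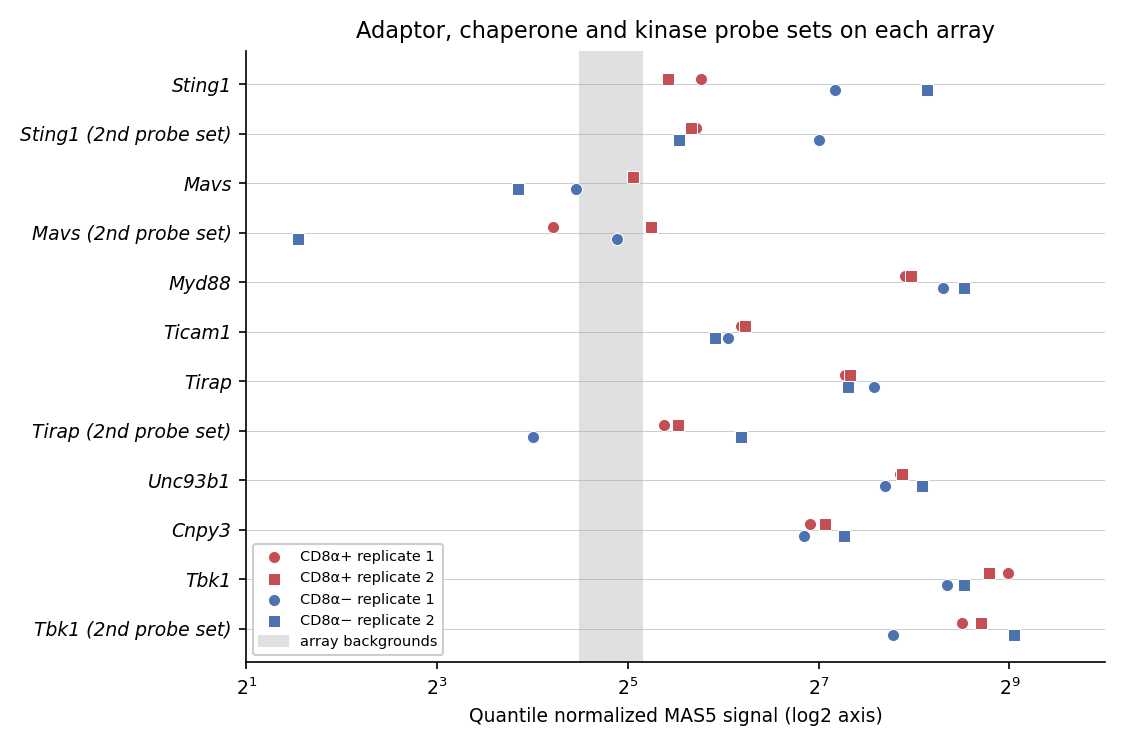
Quantile normalized signal (log2 axis) of the 12 probe sets on each of the 4 arrays, with CD8α+ arrays in red and CD8α− arrays in blue, and the range of the 4 array backgrounds shaded. The red points of a probe set lie close together in most rows. The blue points of Sting1, the 2nd Tirap and the 2nd Tbk1 probe sets are spread widely, and those of the 2nd Mavs probe set most widely (29.5 and 2.93).

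The stretches of DNA just before the start of 4 of these 5 genes are shown here because these genes' arrays separated the groups. They are the 250 bases before the annotated start from the RefSeq promoter table (GRCm38.p6), which holds 7 of the 10 genes. Mavs lies at chr2:131233813-131234062 on the plus strand, Myd88 at chr9:119340019-119340268, Ticam1 at chr17:56276768-56277017 and Tbk1 at chr10:121586795-121587044, each on the minus strand. Capitals mark matches, on either strand, to 4 patterns: the interferon-stimulated response element (ISRE: GAAA, 2 bases of any kind, GAAA), the Ets-IRF composite element (EICE: GGAA, 2 bases of any kind, GAAA), a loose NF-κB pattern (GGG, 5 bases of any kind, CC) and the AP-1 site (TGANTCA). The ISRE and EICE letters are alike, so their matches can overlap.
Myd88: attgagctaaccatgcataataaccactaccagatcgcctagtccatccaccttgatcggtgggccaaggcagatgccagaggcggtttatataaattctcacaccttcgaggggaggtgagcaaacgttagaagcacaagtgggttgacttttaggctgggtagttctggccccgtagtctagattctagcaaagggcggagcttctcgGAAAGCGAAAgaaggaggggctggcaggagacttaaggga
Tbk1: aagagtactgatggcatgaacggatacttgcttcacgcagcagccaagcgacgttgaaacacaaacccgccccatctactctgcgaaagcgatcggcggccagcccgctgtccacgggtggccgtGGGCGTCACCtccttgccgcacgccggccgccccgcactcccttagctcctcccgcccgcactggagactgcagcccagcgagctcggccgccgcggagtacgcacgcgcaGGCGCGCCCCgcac
Ticam1: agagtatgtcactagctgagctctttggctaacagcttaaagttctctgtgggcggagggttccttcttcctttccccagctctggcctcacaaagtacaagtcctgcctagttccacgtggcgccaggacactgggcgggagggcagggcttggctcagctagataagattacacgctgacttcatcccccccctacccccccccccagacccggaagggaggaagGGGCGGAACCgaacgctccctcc
Mavs: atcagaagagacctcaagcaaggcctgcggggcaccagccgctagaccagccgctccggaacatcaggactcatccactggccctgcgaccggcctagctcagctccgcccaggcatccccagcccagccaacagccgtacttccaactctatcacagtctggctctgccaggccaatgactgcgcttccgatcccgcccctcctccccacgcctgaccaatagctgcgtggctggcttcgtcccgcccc
The Myd88 window held the ISRE letters as GAAAGCGAAA, from 40 to 31 bases before the start, which 2.98% of the 32851 windows in the table share. The Tbk1 window held the NF-κB letters at 2 places and the Ticam1 window at 1, a pattern present in 45.8% of all windows. The Mavs window held none of the 4. EICE letters stood in 2.3% and AP-1 letters in 6.75% of all windows, and in none of these 4. A match is only a match of letters.

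Sting1 encodes STING, the adaptor that turns on TBK1 when cyclic dinucleotides bind it. The normalized signals of its brighter probe set (1427911_at) were 54.5 and 42.9 in CD8α+ cells and 144 and 281 in CD8α− cells. All 4 lay above background, and the lower CD8α− array was well above the higher CD8α+ array. The difference was -2.06 ± 0.46 (SE), which is 4.16-fold, with a 95% interval from -3.28 to -0.84, unadjusted p = 0.00833 and limma adjusted p = 0.188. The deposited signals, before any matching of the arrays, were 60.8 and 43.3 against 145 and 121, so that the groups stood apart on that scale too. Leaving out CD8α+ replicate 2 gave a difference of -1.88, and leaving out CD8α− replicate 1 gave -2.54. Such a fit assumes that the lone array of a group varies like the other pair, so only differences are given for it. Over the 14 alternatives the difference ran from -2.54 to -1.32, the last being the mean over both Sting1 probe sets. For the brighter probe set alone the smallest difference was -1.37, with centring on array medians. In those that kept all 4 arrays, the limma adjusted p ran from 0.114 to 0.384.

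The second Sting1 probe set (1447621_s_at) showed a smaller and less certain difference. Its signals were 52.5 and 50.5 in CD8α+ cells, and 128 and 46.4 in CD8α− cells. CD8α− replicate 1 was thus high on both probe sets, whereas CD8α− replicate 2 was the highest of the 4 arrays on the first probe set and the lowest on the second. The fitted difference was -0.58 ± 0.58 with a 95% interval from -2.12 to 0.95 (adjusted p = 0.637). Without CD8α− replicate 2 the second probe set gave -1.32 and the first -1.57. Without CD8α− replicate 1 they gave 0.15 and -2.54.

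Some markers of other blood cells were also lower in CD8α+ cells, none at an adjusted p under 0.05, and 8.84% of all genes were called lower at an unadjusted p under 0.05. Of 5 measured monocyte markers 2 were lower in CD8α+ cells at that level and 0 higher, with a summed normalized signal of 1344 to 1365 in the CD8α+ arrays and 3036 to 4645 in the CD8α− arrays. Cx3cr1, a fractalkine receptor of patrolling monocytes, was not above background in either CD8α+ array. Of the CD8α− arrays only replicate 2 was above it (90.8), replicate 1 reading 26.9. Of 7 natural killer cell markers 3 were called lower and 0 higher, with sums of 774 to 942 against 1672 to 2689. Gzma, not called, read 1663 and 299 in the CD8α− arrays and carried most of the highest sum. Klrk1 (0.50) and Prf1 (0.15) read higher in CD8α+ cells without being called. Of 5 macrophage markers 3 were lower and 1, Vcam1, higher (sums 1009 to 1122 against 1478 to 2089), and C1qb, a complement subunit of tissue macrophages, was not above background in the CD8α+ arrays. Of 5 neutrophil markers 2 were called lower and 0 higher (sums 7050 to 7642 against 10507 to 13825). S100a8 and S100a9, neither called, carried most of these sums. Of 7 plasmacytoid dendritic cell markers 2 were called lower and 0 higher (sums 1113 to 1300 against 1915 to 2700). Tcf4 alone made up most of these sums (709 and 829 against 1291 and 1926). Ccr9 (2.24), Siglech (0.66) and Ly6d (0.05) read higher in CD8α+ cells without being called. T cell markers were not called (0 of 5), with sums of 449 to 682 against 428 to 495. The B cell list rested on 2 measured genes, of which Ms4a1, which encodes the B cell surface protein CD20, was called higher in CD8α+ cells (134 and 142 against 47.1 and 50.2, 2.83-fold, unadjusted p = 0.00613, adjusted p = 0.173). The erythroid list rested on 1 gene, which was not called. The part of these cells in the Sting1 difference was not tested.

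Mavs, the mitochondrial adaptor of RIG-I and MDA5, was read close to background. Its testable probe set (1451176_at) read 33.3 and 33.2 in the CD8α+ arrays and 22.0 and 14.5 in the CD8α− arrays. Both CD8α+ arrays stood just above their own background (31.8 and 22.6), and both CD8α− arrays were below theirs (29.2 and 35.6). Set against the mean log2 background of the CD8α− arrays, the bound was at least 1.03-fold. Both CD8α+ readings were below the background of CD8α− replicate 2, so this bound does not establish a direction. The fitted difference was 0.90 ± 0.37 (interval -0.08 to 1.88, unadjusted p = 0.0635, adjusted p = 0.344), and its size rests on signals within background. Without CD8α− replicate 1 the difference was 1.20, and without CD8α− replicate 2 it was 0.60. The other Mavs probe set (1439185_x_at) was too dim to be tested, with 18.6 and 37.9 in CD8α+ cells and 29.5 and 2.93 in CD8α− cells, and its groups overlapped.

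Myd88, the central TLR adaptor, was bright on every array. The signals were 240 and 250 in the CD8α+ arrays and 317 and 369 in the CD8α− arrays, so the groups did not overlap, and each pair was tight. The difference was -0.48 ± 0.32, or 1.40-fold, with a 95% interval from -1.32 to 0.36, and did not pass (unadjusted p = 0.195, adjusted p = 0.494). Without CD8α− replicate 1 it was -0.59. The sign depended on the scaling: the deposited signals were 301 and 328 against 314 and 159, where the groups overlapped and the fitted difference was 0.49.

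Tirap, the bridging adaptor of TLR2 and TLR4, gave no steady difference. Its brighter probe set (1457676_at) read 156 and 161 in the CD8α+ arrays and 192 and 158 in the CD8α− arrays, and the groups overlapped. The difference was -0.14 ± 0.32 (interval -0.99 to 0.71, adjusted p = 0.845). The second probe set (1418685_at) read 41.5 and 46.3 against 16.1 and 72.6, the CD8α− arrays lying on either side of the CD8α+ arrays and CD8α− replicate 1 below background. Its difference, 0.36 ± 0.79 (interval -1.74 to 2.46), is too uncertain to give a direction, and no fold is given. Without CD8α− replicate 1 it was -0.73, and without CD8α− replicate 2 it was 1.45.

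Ticam1, which encodes TRIF, the adaptor of TLR3, read 72.7 and 74.8 in the CD8α+ arrays and 66.5 and 60.3 in the CD8α− arrays. Both CD8α+ arrays were above both CD8α− arrays by a narrow margin. The difference was 0.22 ± 0.31 (interval -0.61 to 1.05, adjusted p = 0.743). Tlr3 itself, the receptor TRIF serves, differed by 2.59 ± 0.35 (6.03-fold, unadjusted p = 0.00104, adjusted p = 0.113) on its brighter probe set in the same direction. Its second probe set differed in sign. The contrast between receptor and adaptor was not tested.

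Tbk1, the kinase on which TRIF, MAVS and STING converge, was among the bright probe sets of the group. Its brighter probe set (1460315_s_at) read 506 and 441 in CD8α+ cells and 325 and 369 in CD8α− cells, with no overlap. The second (1422469_at) read 364 and 416 against 220 and 529, the CD8α− arrays again lying on either side. The differences were 0.45 ± 0.32 (interval -0.40 to 1.30, unadjusted p = 0.227, adjusted p = 0.525) and 0.19 ± 0.53 (interval -1.21 to 1.59, adjusted p = 0.872), and neither passed. Without CD8α− replicate 1 the second probe set gave -0.44, and without CD8α− replicate 2 it gave 0.82. On the scale as deposited the signals were 645 and 587 against 323 and 159 on the first probe set and 459 and 552 against 217 and 227 on the second. There the first probe set differed by 1.44 (unadjusted p = 0.0494, adjusted p = 0.388).

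Neither chaperone was called. Unc93b1, the escort of TLR3, TLR7 and TLR9, read 231 and 234 in the CD8α+ arrays and 207 and 272 in the CD8α− arrays, and the groups overlapped. The difference was -0.03 ± 0.33 with an interval from -0.91 to 0.86. Cnpy3, the TLR folding chaperone, read 120 and 134 against 116 and 153 with a difference of -0.07 ± 0.34 (interval -0.97 to 0.84), and its groups overlapped too. These intervals hold for quantile normalization: as deposited the differences were 0.94 ± 0.53 for Unc93b1 and 0.76 ± 0.53 for Cnpy3, so a 2-fold difference was not excluded under every scaling.

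**Figure D2:**
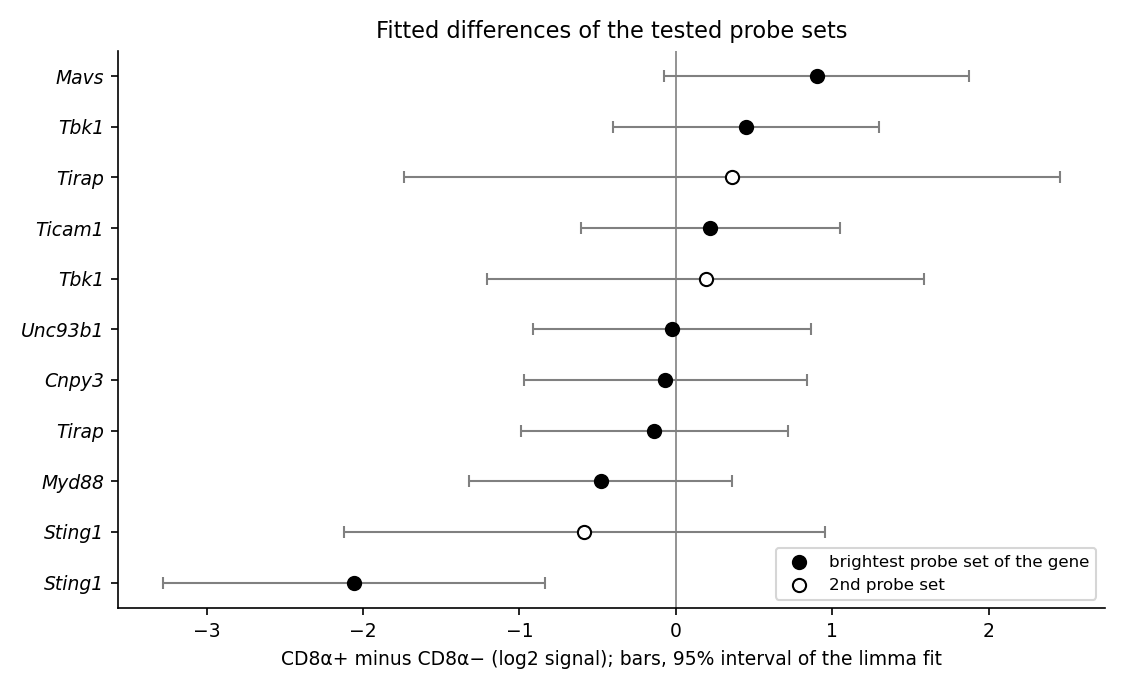
Fitted difference (CD8α+ minus CD8α−, log2 signal) and 95% interval of the 11 tested probe sets, ordered by the difference, with filled points for the probe set that represents a gene and open points for the second. The interval of the brighter Sting1 probe set, from -3.28 to -0.84, lies below 0, and the other 10 intervals include 0.

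Within a population the CD8α+ arrays agreed more closely than the CD8α− arrays for 7 of the 8 genes, Tbk1 being the exception. The SD of the log2 signals ran from 0.00077 to 0.24 in the CD8α+ pair and from 0.10 to 0.68 in the CD8α− pair. The genes read by 2 tested probe sets showed the same unevenness. The change from CD8α− replicate 1 to replicate 2 differed between the probe sets of a gene by 2.43 log2 units for Sting1, 2.45 for Tirap and 1.08 for Tbk1. In the CD8α+ pair the matching values were 0.29, 0.10 and 0.39. This was common on the arrays: over 2607 genes with 2 tested probe sets the median disagreement was 0.33 in the CD8α+ pair and 0.99 in the CD8α− pair, and it exceeded 1 log2 unit in 13.4% and 49.8% of them. Gapdh 3′ to 5′ signal differed on the same array, at 10.7 on CD8α− replicate 2 and 2.02 on CD8α− replicate 1, while the Actb ratio was 0.759 and 1.67, and their part in the disagreement was not tested.

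**Figure D3:**
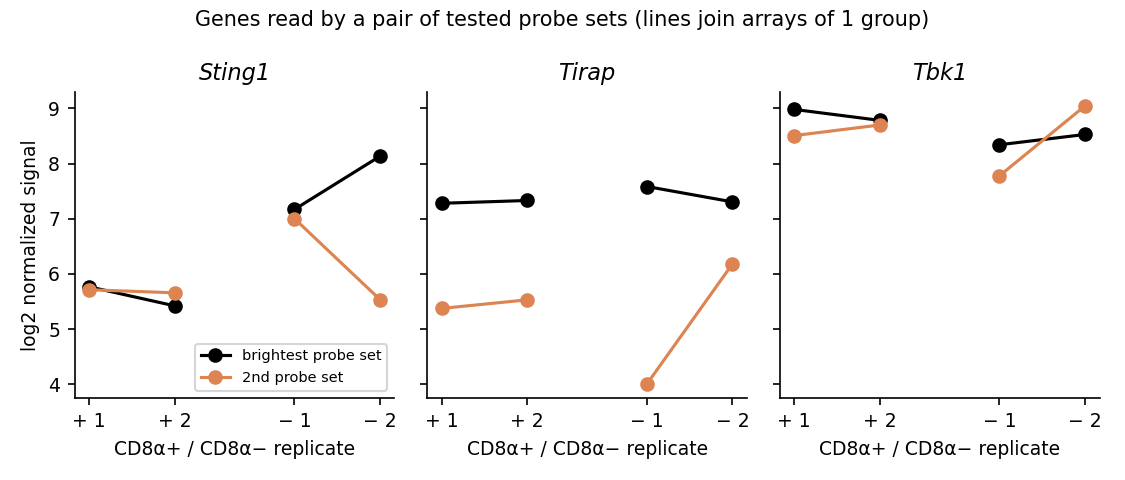
Log2 normalized signal of the brightest and the 2nd probe set of Sting1, Tirap and Tbk1 on each of the 4 arrays, with lines joining the arrays of a population. The CD8α+ lines change by at most 0.35 log2 units, those of Tbk1 in opposite directions. The CD8α− lines of a gene's probe sets diverge (Sting1), converge (Tirap) or cross (Tbk1).

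How the arrays were put on a common scale decided the sign of several genes. Signals as deposited put the median probe set 0.62 higher in CD8α+ cells, centring on array medians 0.63, scaling to a trimmed mean -0.18 and quantile normalization 0.01. Calls at an unadjusted p under 0.05 split accordingly, into 2348 higher and 541 lower as deposited, 5873 and 932 with median centring, 1320 and 3403 with the trimmed mean, and 1763 and 1763 with quantile normalization. Relative to the median probe set of each setting, Sting1 (-2.48 to -1.34) and Myd88 (-0.54 to -0.13) stayed lower in every alternative in which they were tested, and Mavs (0.35 to 1.26), Tbk1 (0.30 to 0.82) and Ticam1 (0.11 to 0.35) stayed higher. Relative values of Unc93b1 (-0.16 to 0.32), Cnpy3 (-0.21 to 0.14) and Tirap (-0.28 to 0.13) fell on both sides of 0. Absolute directions of Myd88, Ticam1, Tirap, Unc93b1 and Cnpy3 flipped with the scaling, with a left-out array or with the mean over probe sets.

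**Figure D4:**
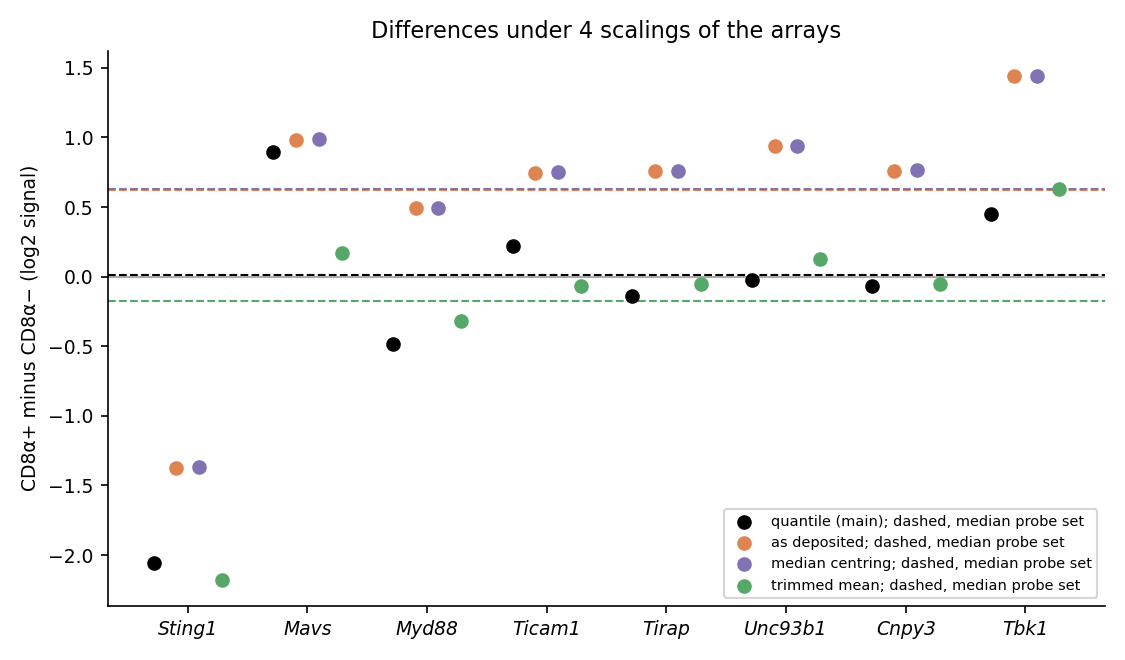
Difference (CD8α+ minus CD8α−, log2 signal) of the brightest probe set of each of the 8 genes under 4 scalings of the arrays, with dashed lines at the median of all tested probe sets in each. Sting1 lies below its dashed line and Tbk1 above it under each scaling, and the points of Unc93b1, Cnpy3 and Tirap lie within 0.32 of theirs.

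The same pathways were then read by role, in lists of receptors, downstream kinases and trafficking partners, described by counts at an unadjusted p under 0.05 beside the 16% of all genes called. No member of the 4 lists passed an adjusted p of 0.05. Of 22 sensing receptors and sensors, 18 were tested, and 3 were called higher and 5 lower in CD8α+ cells, with a median difference of -0.74 against -0.02 over all genes. Among the called, Tlr12 was not above background in CD8α− cells, and Tlr7 was not in CD8α+ cells, so their fitted differences depend on the floor or on signals within background. Without CD8α+ replicate 1, 0 receptors were called lower, and without CD8α− replicate 2, 9 were. By smallest p they were led by Tlr3, the double-stranded RNA receptor given above, Tlr12, the profilin receptor (69.4 and 39.0 against 7.0 and 2.60, at least 1.62-fold), and Ifih1, which encodes MDA5, the long double-stranded RNA sensor upstream of MAVS (97.6 and 101 against 254 and 309). The Ifih1 groups were far apart and CD8α+ cells were lower by 2.83-fold (interval of the difference -2.35 to -0.64, unadjusted p = 0.00717, adjusted p = 0.181). Cgas, which encodes the DNA sensor upstream of STING, was in the list too, and is named after its value was seen: it read 125 and 131 against 201 and 324, with no overlap, which is 1.99-fold lower in CD8α+ cells (interval of the difference -2.02 to 0.02, unadjusted p = 0.0538).

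In the arm from the MyD88 complex to NF-κB, 16 of 21 genes were tested and 2 were called lower and 0 higher, with a median of -0.23. Peli1, an E3 ubiquitin ligase of TLR signalling, read 283 and 271 against 533 and 719 (-1.16 ± 0.34, unadjusted p = 0.0223). Ikbkb, which encodes the NF-κB activating kinase IKK2, read 780 and 923 against 1632 and 1960 (-1.08 ± 0.33, unadjusted p = 0.0260). For each of these genes 3 of 5 tested probe sets shared the sign. Irak3, which encodes the inhibitory kinase-like protein IRAK-M, read 44.9 and 48.5 against 91.4 and 55.9 and was not called (-0.62 ± 0.39).

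In the arm from TBK1 to the interferon regulatory factors, 16 of 20 genes were tested and 1 was called lower and 0 higher, with a median of -0.15. That gene was Irf7, the interferon-inducible regulator of type I interferon genes, at 96.7 and 79.7 against 182 and 155 (-0.93 ± 0.33, unadjusted p = 0.0413). Nlrx1, a mitochondrial protein that restrains MAVS, read 17.3 and 26.1 against 68.1 and 26.1 (-0.99 ± 0.59), with 1 array of each group not above background, so no fold is given. Irf5, a MyD88-dependent regulatory factor, read 799 and 790 against 613 and 542 (0.46 ± 0.31). Neither of the last 2 was called.

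Of 18 trafficking and folding partners all were tested, and 1 was called higher and 1 lower, with a median of 0.17. Rab7b, a small GTPase that sends TLR4 and TLR9 towards lysosomes, was higher in CD8α+ cells, at 3852 and 3982 against 1114 and 1845 (1.45 ± 0.39, 2.73-fold, unadjusted p = 0.0168), and its 3 tested probe sets shared that sign. Slc15a3, a lysosomal peptide and histidine transporter, was lower, at 434 and 504 against 886 and 1654 (-1.37 ± 0.44, 2.59-fold, unadjusted p = 0.0291). Rhbdf2, which encodes iRhom2, a partner of STING in its trafficking, read 76.5 and 86.8 against 147 and 130 (-0.76 ± 0.32, unadjusted p = 0.0672) with no overlap. Hsp90b1, the partner of Cnpy3 in TLR folding and named after its value was seen, read 1546 and 1603 against 537 and 1123 (1.02 ± 0.47, unadjusted p = 0.0880).

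**Figure D5:**
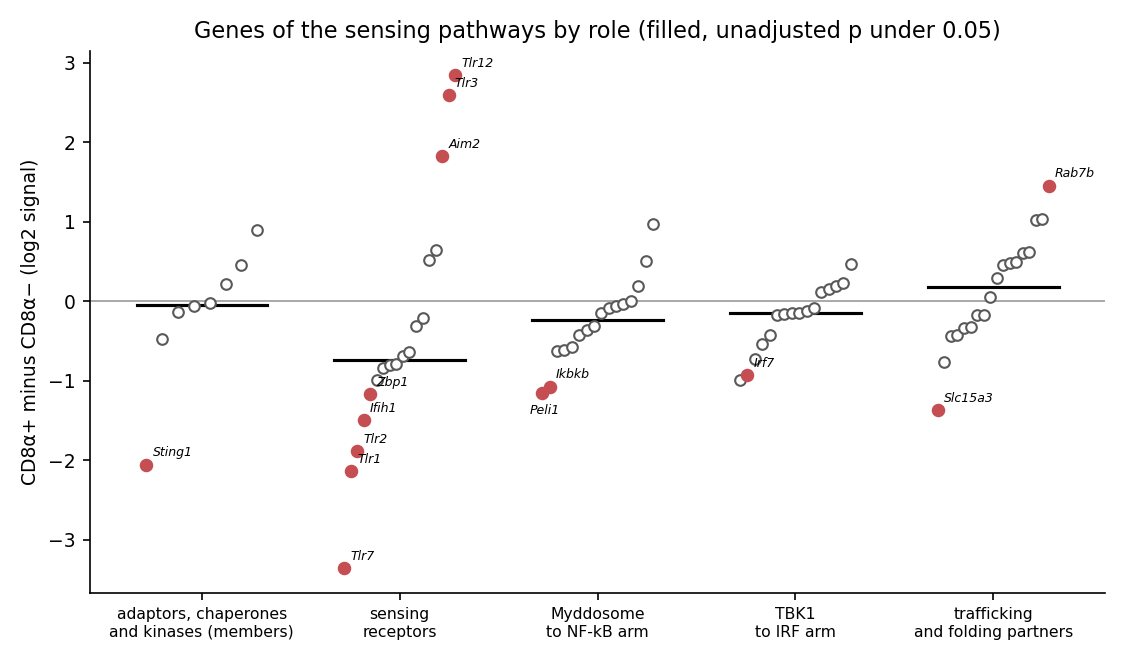
Difference (CD8α+ minus CD8α−, log2 signal) of 1 probe set per gene for the 8 member genes and the tested genes of 4 lists, with filled points at an unadjusted p under 0.05 and a bar at each median. The receptors spread from -3.36 (Tlr7, not above background in CD8α+ cells) to 2.84 (Tlr12, at the floor in CD8α− cells), and the 8 member genes lie between -2.06 and 0.90, with Sting1 as the only filled point.

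The tested genes whose signals ran most like those of Sting1 over the 4 arrays, each centred on its own mean, were Phf21a (root mean square distance 0.053 log2 units; 275 and 215 against 780 and 1381), S100a16 (0.065; 13.8 and 9.68 against 33.1 and 65.3) and Dst (0.074; 44.3 and 38.2 against 127 and 263). S100a16 was not above background in the CD8α+ arrays. Nearest to Mavs, the gene with the second smallest p, were Zc3h7a (0.012; 800 and 798 against 530 and 341), Pgk1 (0.021; 2830 and 2881 against 1943 and 1267) and Jmjd8 (0.024; 82.4 and 78.7 against 53.9 and 35.4). With 4 arrays many genes can share such a pattern.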

How the data were processed

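The authors deposited 1 MAS5 signal per probe set and array, an intensity on a linear scale. Per the submitters' processing notes the signals are MAS5 values; the design text adds GeneSpring, and no source states a scaling target. The labels' protocols and the design text describe the RNA labelling differently (6 µg of total RNA by cRNA, or 100 ng of mRNA by cDNA), and this was not settled. The deposited intensities were not on a common scale, so the 4 arrays were quantile normalized, raised to a floor of 7.28 (mean 25th percentile) and log2 transformed. Of 45101 probe sets 64 were controls; 34945 had 1 gene symbol, 932 several (left unnamed) and 9160 none, per the platform annotation. Probe sets with a mean signal of at least 23.7, the median, were tested (22519 probe sets, 10531 genes), which left out 1 of the 12 member probe sets. A gene was represented by its brightest tested probe set, avoiding names ending in _x_at.

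The comparison used R 4.3.3 with limma 3.58.1 (lmFit, eBayes without trend, two-sided, 2 residual and 2.51 prior degrees of freedom) with Benjamini-Hochberg adjustment over all tested probe sets. The script was tested on simulated data. Where no array of a group exceeded background, the fold is a lower bound ("at least"), set against the larger of array background and probe signal; where 1 array did not, no fold is given. Named genes were the 10 members, the 3 of each list with the smallest p and the 3 nearest in pattern to the 2 members with the smallest p. The members and lists were chosen with earlier results of these data known. Alternatives were other scalings, filters, floors, log transforms, an intensity trend, a replicate block, the mean over probe sets, and leaving out each array. Python 3.11.15 with pandas 2.3.3 built the summaries.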

Additional observations from a re-analysis of the deposited data

How the results depend on the processing

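Sting1, Mavs and Tbk1 kept their direction under every alternative in which they were tested. Each was read on its brightest probe set, save in the alternative that took the mean over a gene's probe sets. There were 14 alternatives for Sting1 and Tbk1 and 13 for Mavs, which was below the stricter filter. Probe sets called over the whole array at an adjusted p under 0.05, 0 here, came to 60 with an intensity trend, 338 with median centring, 24 with the stricter filter, 27 with a replicate block and 0 to 2900 when 1 array was left out, the highest without CD8α− replicate 1. Member probe sets called at that level, 0 here, were 0 to 1 with an array left out, and 0 under the other alternatives. At an unadjusted p under 0.05, member probe sets called higher, 0 here, numbered 1 as deposited and 1 with median centring (Tbk1 in both) and 0 to 3 with an array left out, and those called lower, 1 here, 0 to 3, none being left without CD8α+ replicate 2. The replicate block called 0 member probe sets at an adjusted p under 0.05, and 0 higher and 1 lower at an unadjusted p under 0.05. The labels give same-numbered arrays only a number in common, so whether they were paired is not known. Their deviations from the group means correlated at r = 0.0312 across probe sets, which with 2 arrays per group cannot settle it. The cause of the calls that the block added over the whole array was not tested. As deposited, the signs turned for Myd88 (0.49), Tirap (0.76), Unc93b1 (0.94) and Cnpy3 (0.76), and with median centring for the same genes (0.49, 0.76, 0.94 and 0.76). The median probe set stood at 0.62 and 0.63 in these settings. Relative to it Myd88 was lower and the other genes higher, Unc93b1 the most (0.32 and 0.31). The trimmed mean turned Ticam1 (-0.064), Unc93b1 (0.13) and the second Tirap probe set (-0.18), and the mean over probe sets turned Tirap (0.11). With 1 array left out, Cnpy3 ranged from -0.27 to 0.14, Unc93b1 from -0.22 to 0.17, Tirap from -0.28 to 0.00023, and the second probe sets of Sting1 from -1.32 to 0.15, of Tirap from -0.73 to 1.45 and of Tbk1 from -0.44 to 0.82. List counts at an unadjusted p under 0.05 ranged over the alternatives from 2 to 5 higher and 0 to 9 lower for receptors, 0 to 2 and 0 to 4 for the MyD88 arm, 0 to 1 and 0 to 4 for the TBK1 arm, and 0 to 6 and 0 to 6 for trafficking partners, the highest counts of lower calls being without a CD8α− array. A fit with 1 array left out takes its spread from the other group alone. Counts of calls from such fits therefore do not reflect spread in the group that lost the array. The small number of arrays limits precision, and signal near background limits Mavs.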
